A study of Mus musculus with 19 samples.

Results

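The comparison described here is the effect of a high-fat diet on liver RNA in TG mice minus the effect of the same diet in WT mice. Its members are the 13 arrays whose titles end in WT or TG and in ND or HFD, chosen by those endings alone, of 19 arrays in the series. The value for a gene is the difference of differences, TG on HFD minus TG on ND, minus WT on HFD minus WT on ND, and is called the interaction below. An interaction above 0 means that the gene stood higher on HFD, relative to ND, in TG than in WT.

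RNA from whole mouse liver was measured on Affymetrix arrays, 1 array per sample, in animals aged 2 to 3 months on a normal (ND) or high-fat (HFD) diet for 4 weeks. The 4 groups compared were WT on ND, WT on HFD and TG on ND with 3 arrays each, and TG on HFD with 4. KO on ND and KO on HFD, with 3 arrays each, were not part of the comparison, and their 6 arrays are set beside it. The labels do not spell out WT, TG and KO, and name the Kielin/chordin-like protein, Kcp, in the title of the series alone. They give no strain, sex, litter, batch, time of harvest, transgene promoter or make-up of the diets, and nothing says how the lines were made. Each title carries its own animal number, which is the sole ground for taking arrays as separate animals. In every genotype the animal numbers on HFD come from another range than those on ND, so diet and cohort cannot be told apart in what is called a diet effect here. P-values measure the spread between these arrays.

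Kcp is secreted, carries cysteine-rich repeats like those of chordin, and changes how BMP and TGF-beta ligands signal outside the cell. A liver on a high-fat diet takes up and stores more fatty acid as triglyceride in lipid droplets, and it adjusts its own synthesis of fatty acids and of cholesterol, the latter through the transcription factor SREBP2. Many liver genes also follow the daily clock, and another set differs between males and females through the pattern of growth hormone.

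The diet acted differently in TG and WT on 42 of 22180 genes, 0.189% of those tested (limma, Benjamini-Hochberg adjusted p under 0.05). For 16 genes (0.0721%) the interaction was above 0 and for 26 (0.117%) below 0. Most of these genes changed with diet in WT and did not pass in TG. In WT alone the diet effect passed for 36 of the 42, in TG alone for 4 (Cyp2c29, Col27a1, Rfxank and Grk5), and in both genotypes, in the same direction, for 2 (Elovl3 and Mug2). Among all genes the diet effect passed for 202 in WT (0.911%) and 101 in TG (0.455%). The median size of the diet effect over the 42 was 1.64 on the log2 scale in WT and 0.30 in TG, against 0.14 and 0.13 over all genes. The larger of the 2 diet effects was the one in WT for 37 of the 42, against 52.6% of all genes. These counts and medians use the values that chose the 42 genes and are a description. At an unadjusted p under 0.05 the interaction passed for 1611 genes, 7.26%.

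**Figure D1:**
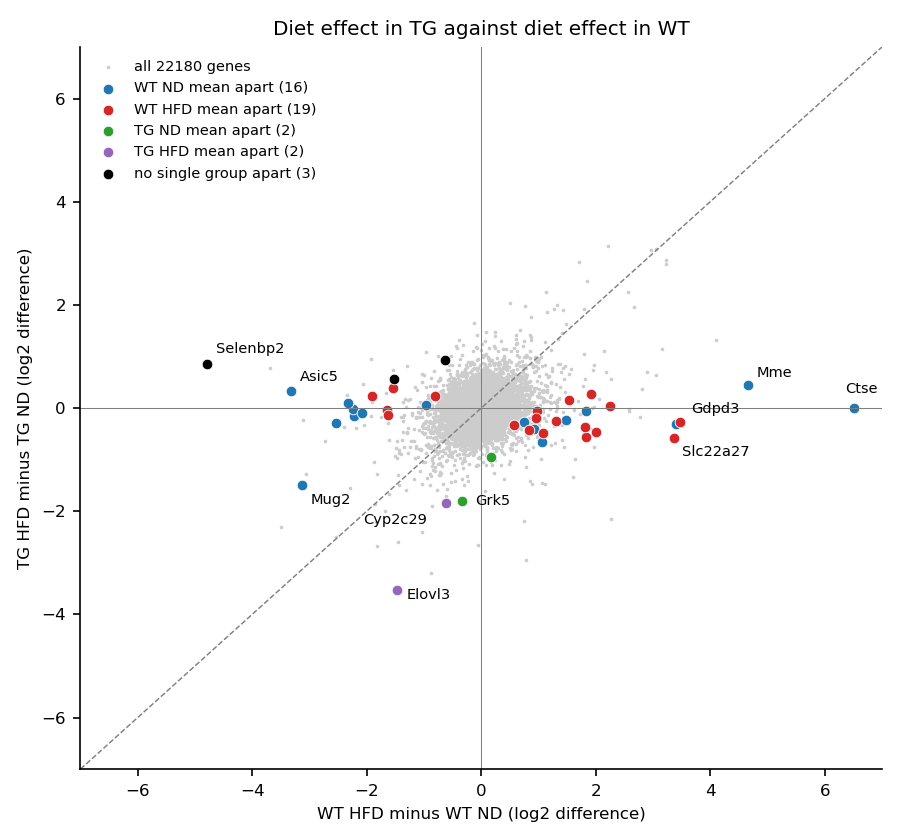
Diet effect in WT (x axis, WT HFD minus WT ND) against that in TG (y axis, TG HFD minus TG ND), both as log2 differences of group means. Grey points are all 22180 genes, coloured points the 42 genes of the interaction by the group whose mean stood apart, and the dashed line marks equal effects. Most coloured points lie along the horizontal axis, with diet effects in WT from -4.78 (Selenbp2) to 6.51 (Ctse), while Elovl3, at -3.54 in TG, lies far below it.

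The difference came mainly from the WT groups. A group mean was taken to stand apart if its distance to the nearest of the other 3 means exceeded their range. By this rule WT on HFD stood apart for 19 of the 42 genes, high in 14 and low in 5. WT on ND stood apart for 16, low in 8 and high in 8. TG on ND stood apart for 2, TG on HFD for 2, and no single group for 3 (Col27a1, Selenbp2 and a predicted gene). Over all genes the shares were 15.7% for WT on HFD, 12.6% for WT on ND, 11.2% for TG on ND, 13.5% for TG on HFD and 47% for none. In all 39 genes with a group apart, its arrays lay outside the range of the other arrays among the 13. Over all genes, with or without a group apart, 5.22% had a group apart and its arrays outside. The values that chose the 42 also set this separation, so it is a description. TG differed from WT on ND in 16 of the 16 genes set by WT on ND, and on HFD in 2 of them (Ctse and Rpl3). On HFD, TG was lower than WT in Ctse (-1.40) and higher in Rpl3 (1.21). Of the 19 genes set by WT on HFD, TG differed from WT on ND in 0 and on HFD in 19. Those 2 genotype comparisons called 215 genes on ND (0.969%) and 619 on HFD (2.79%), and they share arrays with the interaction.

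**Figure D2:**
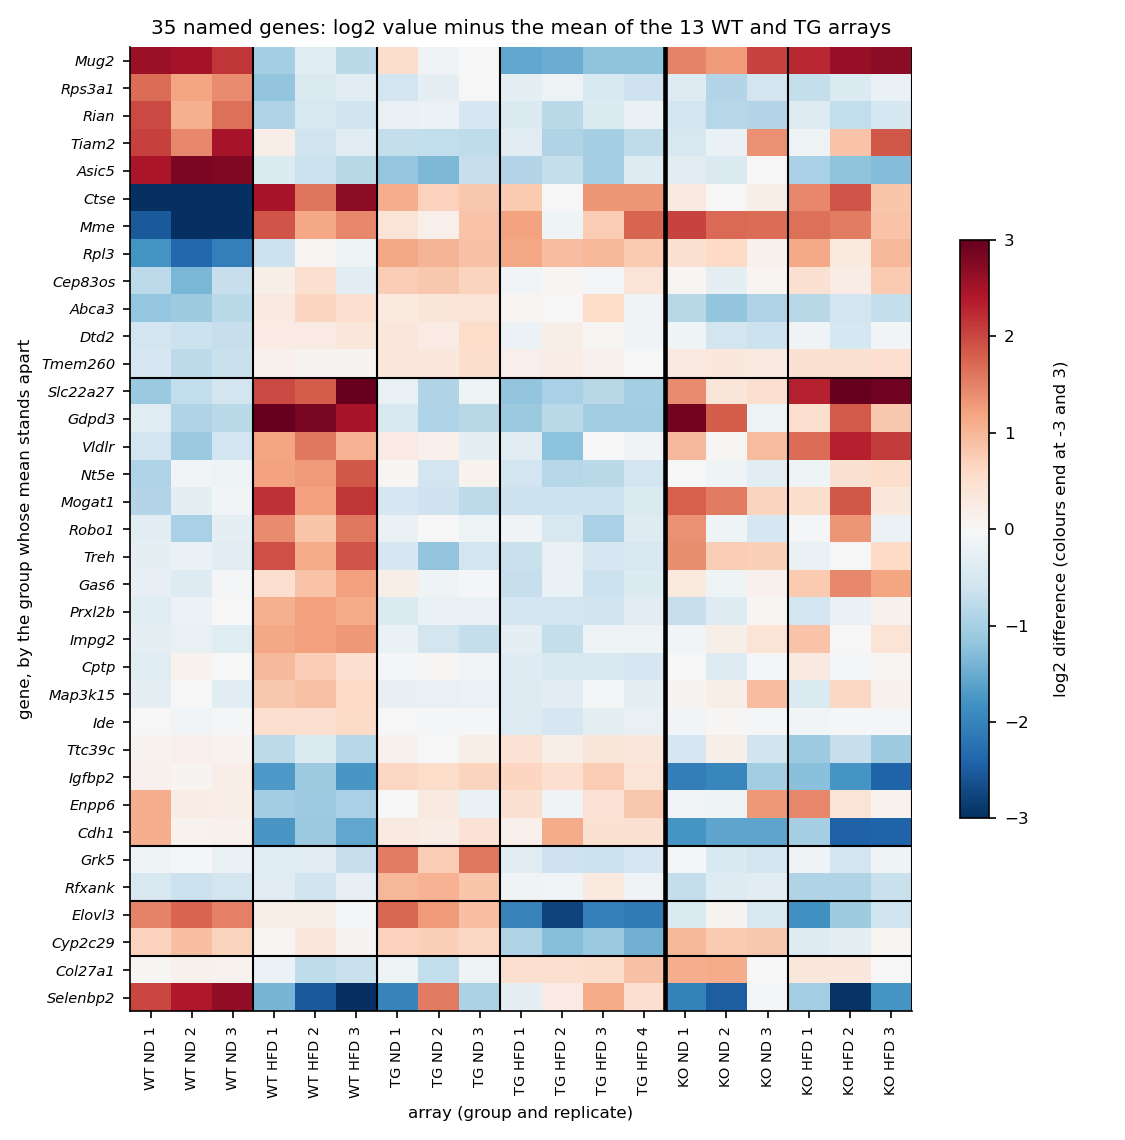
The 35 genes of the interaction that are neither predicted genes, small RNAs nor pseudogenes, in rows, by the group whose mean stood apart (from the top WT ND, WT HFD, TG ND, TG HFD, none), and the 19 arrays in columns. Colour is the log2 value minus the gene's mean over the 13 WT and TG arrays, and ends at -3 and 3. The top block is set by the 3 WT ND arrays and the second by the 3 WT HFD arrays, while the 6 KO arrays on the right resemble different groups in different genes.

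Some features of the arrays touch these results. Kcp read 1.77 to 2.82 on the 6 WT arrays and 5.35 to 5.81 on the 7 TG arrays. Each of these arrays thus matched the WT or TG of its label, which says nothing of the diet. The interaction of Kcp was 0.42 (95% interval -0.14 to 0.98). On the 6 KO arrays Kcp read 1.64 to 2.30, which overlapped WT, so its RNA did not tell KO from WT. The hepatocyte genes Alb (12.26 to 12.51), Ttr (12.03 to 12.27) and Apoa1 (8.92 to 9.91) were high on all 13 arrays. Array medians lay between 0.995 and 1.08. Mean correlation with arrays of other groups was lowest for WT HFD replicate 1 (0.962), followed by TG HFD replicate 2 (0.965). Without both arrays 23 genes passed, 20 of them among the 42. Levels of clock genes differed between the diets in WT and TG. A score of evening-peaking minus morning-peaking clock genes was -1.62 ± 1.13 (SD, n = 3) in WT on ND and 1.35 ± 0.09 (n = 3) in WT on HFD, and -2.31 ± 0.45 (n = 3) in TG on ND and 1.42 ± 0.22 (n = 4) in TG on HFD. KO on ND, at 1.30 ± 0.19 (n = 3), stood with the HFD groups, and KO on HFD was at 1.67 ± 0.16 (n = 3). The part of this in the KO values below was not tested. With that score as a covariate 26 genes passed, 23 of them among the 42, and the part of harvest time in the rest was not tested. Markers of Kupffer cells and other macrophages stood higher in TG on both diets. The mean log2 level of 24 markers was 4.05 to 4.21 in WT on ND and 4.06 to 4.30 in WT on HFD. In TG it was 5.18 to 5.68 on ND and 5.12 to 5.57 on HFD. Of the 24, 0 passed the interaction, where 0.189% of all genes did, with a median of -0.04. In whole liver, fewer cells of a type and less RNA per cell cannot be told apart.

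Among the 14 genes that were high in WT on HFD, Gdpd3, Prxl2b and Slc22a27 had the smallest unadjusted p. Nt5e had the same adjusted p as Slc22a27. Gdpd3 encodes an enzyme that splits lysophospholipids, Prxl2b a prostaglandin F synthase, and Slc22a27 a transporter of organic anions whose liver RNA is higher in females. The 150 bases before the start of each gene are shown, with TGACCT in capitals. These genes share a pattern because they were picked as high in WT on HFD. In KO their diet effects differed, at -0.46 for Gdpd3, 0.13 for Prxl2b and 2.29 for Slc22a27. Read from the opposite strand this is AGGTCA, a core motif bound by many nuclear receptors. Sequences are those of RefSeq, GRCm38.p6, written 5′ to 3′ on the strand of the gene, and no peak, methylation or binding was measured there.
Gdpd3, chr7:126766264-126766413, plus strand: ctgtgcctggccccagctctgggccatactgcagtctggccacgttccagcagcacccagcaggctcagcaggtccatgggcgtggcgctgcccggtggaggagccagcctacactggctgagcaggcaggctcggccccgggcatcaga
Prxl2b, chr4:154899044-154899193, minus strand: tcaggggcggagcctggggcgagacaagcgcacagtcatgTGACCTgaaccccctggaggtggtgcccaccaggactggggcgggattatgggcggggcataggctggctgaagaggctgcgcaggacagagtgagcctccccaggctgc
Slc22a27, chr19:7966028-7966177, minus strand: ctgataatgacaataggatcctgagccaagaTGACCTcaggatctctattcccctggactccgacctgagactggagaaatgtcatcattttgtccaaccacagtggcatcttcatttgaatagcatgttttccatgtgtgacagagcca
The motif began 110 bases before the start of Prxl2b and 119 bases before that of Slc22a27, and these letters were not in the stretch of Gdpd3. Over windows of 300 bases around gene starts, searched on both strands, AGGTCA stood in 13.5% of the 37 windows of 30 genes of the interaction that had one, against 16.3% of 32851 windows in all. CACGTG stood in 2.70% against 7.15%, and TTCNNNGAA in 8.11% against 8.30%. A match is a description and no binding site.

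Gdpd3 rose with HFD in WT and did not pass in TG. WT ND arrays read 1.44, 0.90 and 1.00 (log2), WT HFD arrays 4.84, 4.65 and 4.28, TG ND arrays 1.34, 0.89 and 0.97, and TG HFD arrays 0.69, 0.99, 0.77 and 0.75. All 3 WT HFD arrays lay above the other 10. The interaction was -3.74 (SE 0.25, adjusted p 1.64e-05, limma), from a diet effect of 3.48 in WT and -0.26 in TG. KO arrays were spread between the levels of these groups, at 4.67, 3.62 and 1.67 on ND and 2.31, 3.66 and 2.62 on HFD.

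Slc22a27 was likewise highest in WT on HFD and lowest in TG on HFD, but TG on ND lay above WT on ND. Values were 0.35, 0.71 and 0.91 in WT on ND, 3.45, 3.29 and 5.35 in WT on HFD, 1.23, 0.57 and 1.30 in TG on ND and 0.28, 0.48, 0.64 and 0.44 in TG on HFD. WT HFD replicate 3 was the highest, and the other 2 WT HFD arrays also lay above all WT ND and TG arrays. The interaction was -3.94 (SE 0.56, adjusted p 0.0118), with a diet effect of 3.37 in WT and -0.57 in TG. In KO, Slc22a27 rose with diet as in WT, by 2.29 (adjusted p 0.0227 in the fit of 19 arrays).

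Prxl2b spanned a smaller range. Its mean was 4.09 ± 0.19 (SD, n = 3) in WT on ND, 5.39 ± 0.08 (n = 3) in WT on HFD, 3.99 ± 0.13 (n = 3) in TG on ND and 3.75 ± 0.13 (n = 4) in TG on HFD. Its interaction was -1.55 (SE 0.18, adjusted p 0.00315). All 6 KO arrays, at 3.57 to 4.39, lay below the 3 WT HFD arrays and near the levels of TG and of WT on ND. Nt5e, the surface enzyme that makes adenosine from AMP, read 4.69, 4.75 and 5.35 in WT on HFD against 2.57 to 3.59 on the 6 ND arrays and 2.64 to 2.92 in TG on HFD. All WT HFD arrays lay above the other 10, which overlapped between groups, and its interaction was -2.38 (SE 0.34, adjusted p 0.0118).

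Genes of lipid handling were among those high in WT on HFD. Mogat1, a monoacylglycerol acyltransferase of triglyceride synthesis, read 0.61, 1.19 and 1.39 in WT on ND, 3.64, 2.70 and 3.62 in WT on HFD, and 0.69 to 1.05 on the 7 TG arrays. Its interaction was -2.21 (SE 0.33, adjusted p 0.0151), and it missed the threshold without TG ND replicate 1 (adjusted p 0.0556) or replicate 2, and in the fit of 19 arrays. KO arrays stood high on both diets, 2.16 to 3.27 on ND and 1.81 to 3.35 on HFD. Vldlr, the receptor for very-low-density lipoprotein, had means of 1.52 ± 0.32 in WT on ND, 3.53 ± 0.28 in WT on HFD, 2.30 ± 0.28 in TG on ND (n = 3 each) and 1.85 ± 0.57 in TG on HFD (n = 4). The interaction of Vldlr was -2.47 (SE 0.39, adjusted p 0.0216), and in KO it rose with diet by 1.39 (adjusted p 0.0392). It missed the threshold without WT ND replicate 2 or 3, TG ND replicate 1 or 2, or WT HFD replicate 1, with an adjusted p of at most 0.0701.

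Of the other genes high in WT on HFD, Robo1, a receptor for Slit guidance proteins, had an interaction of -2.18 (SE 0.33, adjusted p 0.0208), with 5.23, 4.64 and 5.40 in WT on HFD and 2.82 to 3.79 on the other 10 arrays. It missed the threshold without any 1 of the TG ND arrays or without WT HFD replicate 1 or 3 (at most 0.0604), and in the fit of 19 arrays (0.192). A further 6 genes and 1 predicted transcript were named after their values were seen. Gas6, the ligand of the receptors Axl and Mertk, had an interaction of -1.57 and rose in KO by 1.04 (adjusted p 0.0192). Cptp, a transfer protein for ceramide-1-phosphate, had -1.26, Ide, an insulin-degrading protease, -0.89, and Treh, the enzyme that splits trehalose, -1.65. Impg2, a proteoglycan known from the retina, had -1.37 and the kinase gene Map3k15 -1.02. The last gene of the 14 is the transcript 2810408B13Rik, which was dim on all 13 arrays, between -0.03 and 1.41. Adjusted p for Gas6, Cptp, Ide, Treh, Impg2 and Map3k15 lay between 0.0216 and 0.0494, and each missed the threshold in 6 to 11 of 13 fits that leave out 1 array, up to 0.156 for Treh without TG ND replicate 1.

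Igfbp2 led the 5 genes that were low in WT on HFD. It encodes a circulating binding protein of insulin-like growth factors made by the liver. Values were 8.16, 8.11 and 8.22 in WT on ND, 6.30, 6.95 and 6.29 in WT on HFD, 8.65, 8.57 and 8.68 in TG on ND and 8.66, 8.53, 8.79 and 8.45 in TG on HFD. Every WT HFD array lay more than 1 log2 unit below every other array of the 13. The interaction was 1.62 (SE 0.22, adjusted p 0.0115), with a diet effect of -1.65 in WT and -0.03 in TG. In KO, Igfbp2 was low on both diets, 5.95 to 6.99 on ND and 5.62 to 6.78 on HFD. In the fit of 19 arrays its adjusted p was 0.089.

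Cdh1, the adhesion molecule E-cadherin of periportal hepatocytes and bile ducts, read 7.04, 6.04 and 6.06 in WT on ND, 4.19, 4.83 and 4.40 in WT on HFD, 6.17 to 6.39 in TG on ND and 6.09 to 7.06 in TG on HFD. The interaction was 2.15 (SE 0.38, adjusted p 0.0386). All 6 KO arrays were low, 3.51 to 4.95. It missed the threshold in 10 of 13 fits that leave out 1 array, with an adjusted p of 0.132 without WT HFD replicate 1, and it was kept without WT HFD replicate 2, TG HFD replicate 1 or TG HFD replicate 2. Another probe set of Cdh1, which was dim, gave 0.98. The other 7 periportal markers measured did not pass, and markers of bile duct cells had levels of 1.47 to 1.60 in WT on ND, 1.37 to 1.54 in WT on HFD, 1.45 to 1.55 in TG on ND and 1.26 to 1.56 in TG on HFD. Ttc39c, a tetratricopeptide repeat protein, had an interaction of 1.04 (adjusted p 0.0309) and Enpp6, a choline-specific phosphodiesterase, 1.92 (adjusted p 0.0386). Ttc39c missed the threshold in 11 of 13 such fits and was kept without WT HFD replicate 2 or TG HFD replicate 2, while Enpp6 missed it in 12 and was kept without TG HFD replicate 2. The fifth gene of this group is a microRNA precursor, Mir1948, at -1.63 for the diet effect in WT and -0.13 in TG.

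**Figure D3:**
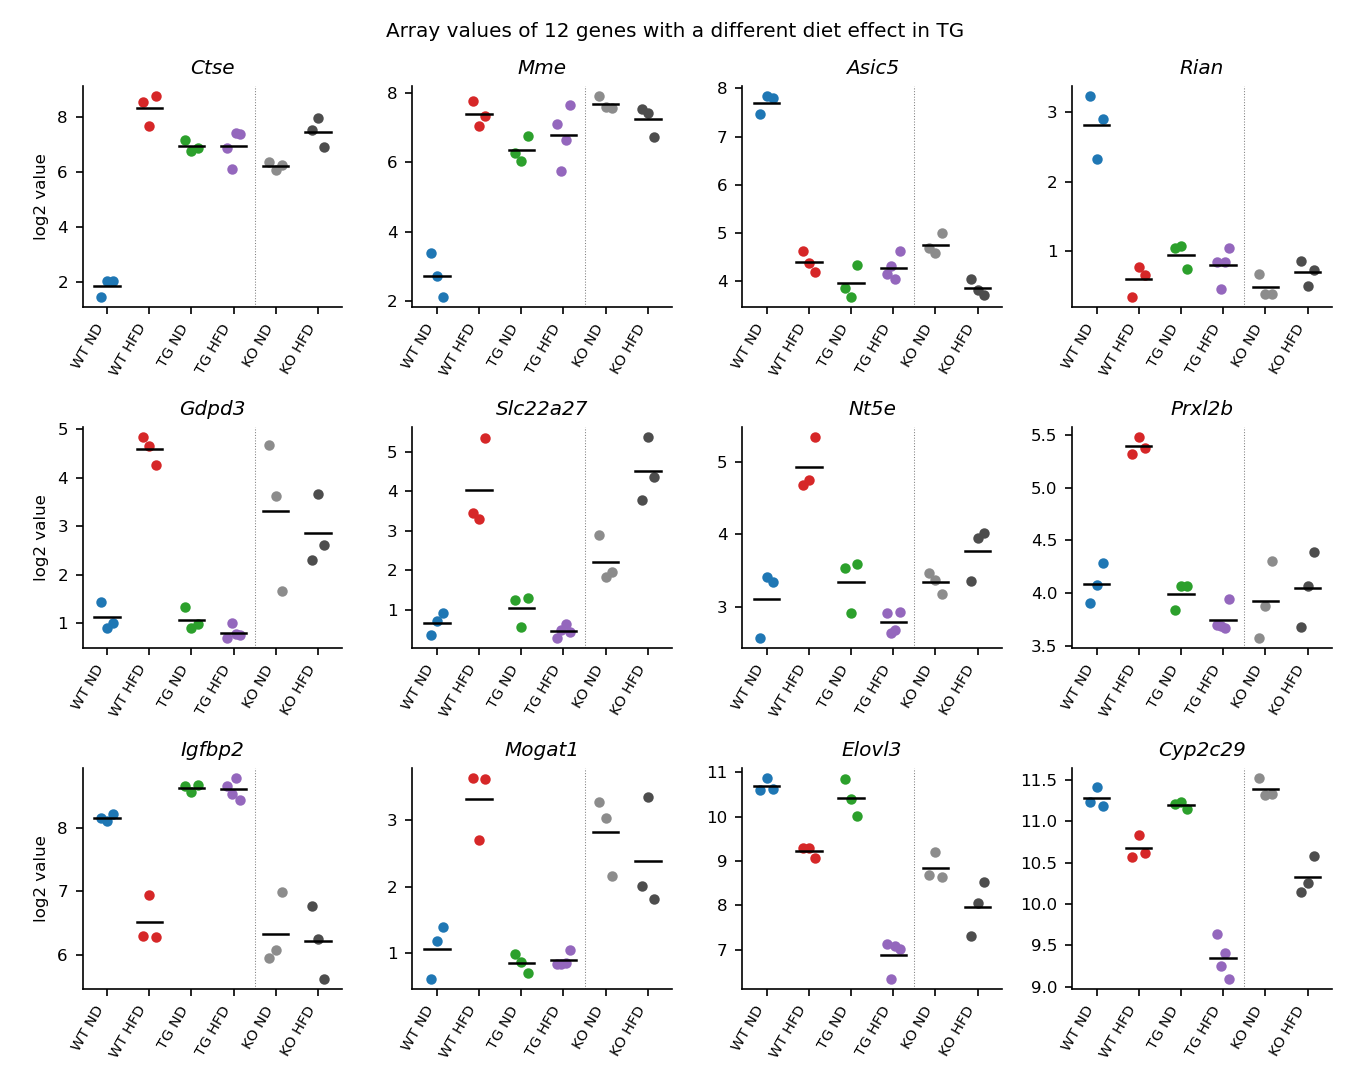
Log2 value of 12 genes on each array (points) in the 6 groups, with group means as bars. The y axes differ between panels and do not start at 0. In Ctse, Mme, Asic5 and Rian the WT ND arrays lie apart, in Gdpd3, Slc22a27, Nt5e, Prxl2b, Igfbp2 and Mogat1 the WT HFD arrays, and in Elovl3 and Cyp2c29 the TG HFD arrays.

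Ctse had the largest interaction of all genes tested, and it came from WT on ND. It encodes cathepsin E, an aspartic protease of endosomes. Values were 1.44, 2.04 and 2.01 in WT on ND, 8.56, 7.69 and 8.77 in WT on HFD, 7.17, 6.76 and 6.88 in TG on ND and 6.86, 6.10, 7.41 and 7.40 in TG on HFD. The 3 WT ND arrays lay more than 4 log2 units below the other 10. The interaction was -6.51 (SE 0.46, adjusted p 1.67e-05), with a diet effect of 6.51 in WT and 0.00 in TG. KO arrays were high on ND too, at 6.36, 6.08 and 6.26.

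Mme, which encodes the membrane peptidase neprilysin, had the same pattern. It read 3.38, 2.71 and 2.12 in WT on ND, 7.78, 7.06 and 7.35 in WT on HFD, 6.28, 6.04 and 6.76 in TG on ND and 7.10, 5.76, 6.66 and 7.65 in TG on HFD. WT on ND lay below all other arrays, and the interaction was -4.22 (SE 0.56, adjusted p 0.00986). KO on ND read 7.56 to 7.92, in or above the range of WT on HFD.

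Smaller interactions, again with WT on ND lowest, were seen in Abca3, Dtd2, Cep83os and Rpl3. Abca3, a transporter of phospholipids, had an interaction of -1.70 (SE 0.23, adjusted p 0.00986) and means of 5.81 ± 0.18 in WT on ND, 7.28 ± 0.19 in WT on HFD, 7.18 ± 0.06 in TG on ND (n = 3 each) and 6.95 ± 0.29 in TG on HFD (n = 4). In KO, Abca3 was low on both diets, 5.64 to 6.24. Dtd2, an enzyme that removes wrongly attached amino acids from tRNA, had -1.32 (SE 0.17, adjusted p 0.00892) and rose in WT by 0.92. Cep83os, a transcript from the strand opposite Cep83, had -1.73 (adjusted p 0.0309) at levels of 0.82 to 3.02 and missed the threshold in 10 of 13 fits that leave out 1 array. It was kept without WT ND replicate 3, WT HFD replicate 3 or TG HFD replicate 4. In Rpl3, a protein of the large ribosomal subunit, WT on HFD also lay below TG. Its means were 5.21 in WT on ND, 7.04 in WT on HFD, 8.30 in TG on ND and 8.24 in TG on HFD. Its interaction was -1.88 (SE 0.25, adjusted p 0.00986), but its other probe sets gave 1.02 and 0.24. The mean of its probe sets did not pass (adjusted p 0.912). Its value is therefore uncertain. Tmem260, an O-mannosyltransferase named after its value was seen, had -1.02 (adjusted p 0.0216) and was lost without WT ND replicate 2 or 3, any 1 of the TG ND arrays, or WT HFD replicate 1 or 3 (at most 0.0678). The predicted transcript 2610507I01Rik, also outside the rule, read 1.17 to 2.11 in WT on ND and 4.71 to 5.68 on the other 10 arrays.

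Asic5 led the genes that were high in WT on ND. It encodes an ion channel that bile acids open. Values were 7.47, 7.84 and 7.80 in WT on ND, 4.61, 4.38 and 4.18 in WT on HFD, 3.85, 3.66 and 4.32 in TG on ND and 4.14, 4.30, 4.03 and 4.62 in TG on HFD. The other 10 arrays all read 4.62 or less. The interaction was 3.64 (SE 0.27, adjusted p 2.09e-05), with a diet effect of -3.32 in WT and 0.33 in TG. In KO the level was 4.57 to 4.99 on ND, far below WT on ND, and fell with diet by 0.89 (adjusted p 0.0332).

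Rian, a long noncoding RNA of the imprinted Dlk1-Dio3 region that is expressed from the maternal chromosome and hosts small nucleolar RNAs, read 3.23, 2.32 and 2.90 in WT on ND and 0.34 to 1.07 on the other 10 arrays. Its interaction was 2.07 (SE 0.30, adjusted p 0.0126), and KO arrays read 0.38 to 0.86. Of 51 genes measured in the stretch from Meg3, 34 had an interaction above 0, and the median was 0.16. In this stretch 2 passed, Rian and the small nucleolar RNA AF357425 (2.42, adjusted p 0.031). Over all genes 50.5% were below 0 and 0.189% passed. Most genes of the stretch are microRNA precursors that were dim, with group means under 2, so the count of signs says little. The small nucleolar RNAs AF357355 (2.59), DQ267102 (2.02) and DQ267101 (1.50), picked after their values were seen, were also higher in WT on ND than in the other groups and did not pass (adjusted p 0.465, 0.182 and 0.554). Meg3 itself, at group means of 0.49 to 0.73, had an interaction of 0.24 (adjusted p 0.82).

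Mug2, a murinoglobulin that traps proteases in plasma, fell with HFD in both genotypes and fell further in WT. Values were 9.68, 9.57 and 9.22 in WT on ND, 6.10, 6.71 and 6.29 in WT on HFD, 7.60, 6.97 and 7.08 in TG on ND and 5.54, 5.61, 5.88 and 5.87 in TG on HFD. TG on ND lay between both WT groups. Its diet effect was -3.12 in WT and -1.49 in TG, and the interaction 1.63 (SE 0.27, adjusted p 0.0309). The call was lost in 8 of 13 fits that leave out 1 array, and kept without WT ND replicate 3, TG ND replicate 1, WT HFD replicate 2, TG HFD replicate 1 or TG HFD replicate 2. KO arrays stayed high on both diets, 8.35 to 9.76.

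Tiam2, an exchange factor for the GTPase Rac, was at 2.76 to 3.78 in WT on ND and 0.32 to 1.50 on the other 10 arrays. Its interaction was 2.23 (SE 0.34, adjusted p 0.0208, and 0.242 in the fit of 19 arrays). It missed the threshold without WT ND replicate 1 (0.061), any 1 of the TG ND arrays or WT HFD replicate 3. Rps3a1, a protein of the small ribosomal subunit with many processed copies in the genome, had 1.99 (adjusted p 0.0213), while another, dim probe set gave 0.09. It missed the threshold without WT ND replicate 1 or 3 or TG ND replicate 1 or 2. The last 2 genes of this group are a microRNA precursor, Mir193b, and a pseudogene of the Cyp2c family, Cyp2c53-ps, which fell with diet in KO as in WT.

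Over the 16 genes set by WT on ND, KO on ND lay closer to TG on ND than to WT on ND in 12. All 6 KO arrays lay beyond the WT ND arrays, on the side of the other groups, in 11 of the 16. The 5 others were Abca3, Dtd2, Mug2, Tiam2 and Cyp2c53-ps. Over all genes, 7.06% had the 6 KO arrays clear of the WT ND arrays on either side. The 16 were chosen with WT ND apart, which favours such a place for KO, so this share is no like measure. Over the 19 genes set by WT on HFD, KO on HFD lay closer to TG on HFD in 9. All 6 KO arrays lay beyond the WT HFD arrays in 6 of the 19. Over all genes, 3.92% had the 6 KO arrays clear of the WT HFD arrays on either side, with the same limit. No share over all genes was taken for the counts of KO closer to TG. KO changed with diet in 6 of the 42, Asic5, Cyp2c29, Cyp2c53-ps, Gas6, Slc22a27 and Vldlr, each in the direction of WT, where 178 of all genes passed (0.803%). The median size of the diet effect over the 42 in KO was 0.42.

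The TG groups set 4 of the genes. Elovl3, an elongase of very long fatty acids that follows sex and clock in liver, fell with HFD in both genotypes and fell most in TG. Values were 10.61, 10.87 and 10.63 in WT on ND, 9.30, 9.29 and 9.08 in WT on HFD, 10.86, 10.40 and 10.03 in TG on ND and 7.12, 6.34, 7.08 and 7.01 in TG on HFD. WT and TG on ND overlapped, and all TG HFD arrays lay below all WT HFD arrays. KO arrays read 8.65 to 9.21 on ND, below WT and TG on ND, and 7.31 to 8.53 on HFD, between WT and TG on HFD. The diet effect was -1.48 in WT and -3.54 in TG, and the interaction -2.06 (SE 0.30, adjusted p 0.0151). The call was kept under all settings tried, with a highest adjusted p of 0.0498 without WT ND replicate 3.

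Cyp2c29, a cytochrome P450 of drug and fatty acid oxidation, read 11.23, 11.42 and 11.19 in WT on ND, 10.57, 10.83 and 10.61 in WT on HFD, 11.21, 11.23 and 11.15 in TG on ND and 9.63, 9.26, 9.41 and 9.10 in TG on HFD. The ND groups did not separate, and the TG HFD arrays were the lowest of the 13. Its diet effect was -0.61 in WT (adjusted p 0.0708) and -1.85 in TG (adjusted p 2.18e-05), and the interaction -1.24 (SE 0.19, adjusted p 0.0216). In KO, Cyp2c29 fell by 1.06 (adjusted p 0.00326). The interaction missed the threshold without WT ND replicate 1 or 3, any 1 of the TG ND arrays or WT HFD replicate 3 (at most 0.0661). It also missed it with the mean of its probe sets (0.577), of which another, at a mean of 0.54, gave 0.28. Beside this gene and Elovl3, the mean log2 level of the pericentral hepatocyte markers was 7.21 to 7.51 in WT on ND, 7.38 to 7.53 in WT on HFD, 7.20 to 7.31 in TG on ND and 6.16 to 7.19 in TG on HFD. The TG HFD arrays lay below the others by this measure, the highest of them by little. All 11 markers had an interaction below 0, with a median of -0.53, and 0 passed. Over all genes 50.5% were below 0 and 0.189% passed. Their part in the fall of Cyp2c29 and Elovl3 was not tested.

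The genes set by TG on ND were Grk5 and Rfxank, both named after their values were seen. Grk5, a kinase of G-protein-coupled receptors, read 4.18, 3.39 and 4.22 in TG on ND and 1.95 to 2.60 on the other 10 arrays, with an interaction of -1.47 (SE 0.27, adjusted p 0.0464). Rfxank, a subunit of the factor that drives MHC class II genes, read 6.23, 6.28 and 6.08 in TG on ND, 5.13 to 5.53 in TG on HFD and 4.60 to 5.00 in WT, with -1.12 (adjusted p 0.031). Both calls were lost in most fits that leave out 1 array: Grk5 was kept only without TG ND replicate 2 and Rfxank only without WT HFD replicate 2 or TG HFD replicate 3. Of 10 markers of dendritic cells and MHC class II, 0 passed the interaction, where 0.189% of all genes did, so this says little.

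In 2 named genes no single group stood apart. Selenbp2, a selenium-binding protein that is higher in males, read 10.28, 10.67 and 10.91 in WT on ND, 6.88, 5.75 and 4.87 in WT on HFD, 6.27, 9.83 and 7.31 in TG on ND and 8.01, 8.50, 9.38 and 8.76 in TG on HFD. WT fell by 4.78 with diet, while the TG ND arrays were spread over the range of the other groups. The interaction was 5.65 (SE 0.96, adjusted p 0.031), lost in 11 of 13 fits that leave out 1 array and kept without TG ND replicate 2 or WT HFD replicate 1. Col27a1, a fibrillar collagen, rose with diet in TG by 0.94 (adjusted p 0.0323), had a diet effect of -0.63 in WT (adjusted p 0.185) and an interaction of 1.57 (SE 0.26, adjusted p 0.0271). It was kept without TG ND replicate 3, WT HFD replicate 1 or TG HFD replicate 2, 3 or 4, and lost without the other 8.

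Some genes changed with diet in both genotypes. The diet effect passed in both for 38 genes, 18.8% of the WT list and 37.6% of the TG list, which share no array, and all 38 moved the same way, 17 up and 21 down. Of these, 36 did not pass the interaction and 2 did (Elovl3 and Mug2), where 0.189% of all genes passed it. In 24 of the 38 the diet effect was larger in TG, while it was larger in WT for 52.6% of all genes. The genes described here were picked after their values were seen. Among them are clock genes: Arntl, a positive arm of the clock, fell by 2.53 in WT and 2.49 in TG, with an interaction of 0.04 (95% interval -0.80 to 0.89). Wee1, a cell cycle kinase under clock control, rose by 3.06 and 3.09, with 0.03 (-1.04 to 1.10), and the deubiquitinase gene Usp2 by 2.97 and 3.06, with 0.10 (-0.74 to 0.93). Thrsp, a protein of lipogenic tissue, rose by 2.56 and 2.26, with -0.30 (-1.08 to 0.48), and Cyp3a11, a drug-metabolising enzyme, fell by 1.84 and 2.20, with -0.36 (-0.90 to 0.18). Other clock genes lay further from 0. Dbp rose by 1.70 in WT and 2.84 in TG, with 1.14 (0.29 to 1.98, adjusted p 0.532). Ciart rose by 2.21 and 3.15, with 0.94 (-0.08 to 1.96). The intervals of Arntl, Wee1, Usp2, Thrsp and Cyp3a11 leave room for differences of up to about 1 log2 unit, and those of Dbp and Ciart for larger ones. Of the 202 genes that passed in WT, 38 also passed the interaction (18.8%), and of the 101 in TG, 6 did (5.94%).

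Genes of cholesterol synthesis and other SREBP2 targets leaned one way without any single gene passing. Of 19 measured, 0 passed the interaction in either direction, 19 had a value below 0 and 11 had an unadjusted p under 0.05, with a median of -1.04, against 50.5%, 7.26% and a median of 0.00 over all genes. In 16 of the 19 the diet effect was above 0 in WT and below 0 in TG, a pattern held by 22.6% of all genes. These genes share a regulator and were read on the same arrays, so they are not independent. The mean log2 level of the 19 was 6.09 to 6.73 in WT on ND, 6.71 to 7.43 in WT on HFD, 6.92 to 7.40 in TG on ND and 6.17 to 7.65 in TG on HFD. WT on HFD and TG on ND overlapped, and the TG HFD arrays reached from below both of these groups to above them.

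Of these, 3 were picked after their values were seen. Hmgcs1, the synthase before the rate-limiting step of the pathway, read 8.26, 8.73 and 9.23 in WT on ND, 9.49, 9.16 and 10.12 in WT on HFD, 9.92, 9.89 and 9.48 in TG on ND and 7.96, 7.17, 9.72 and 8.54 in TG on HFD. TG HFD replicate 3 stood with TG on ND, while the other 3 were lower. Its interaction was -2.27 (SE 0.66, adjusted p 0.379). For Sqle, squalene epoxidase, it was -2.63 (SE 0.88, adjusted p 0.504), and for Srebf2, the gene of SREBP2 itself, -0.57 (SE 0.18, adjusted p 0.459). The median of the 19 was -1.36 without TG HFD replicate 3 and -0.84 without WT HFD replicate 3, its extremes over all settings. None of these 19 genes passed for diet in WT or in TG.

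**Figure D4:**
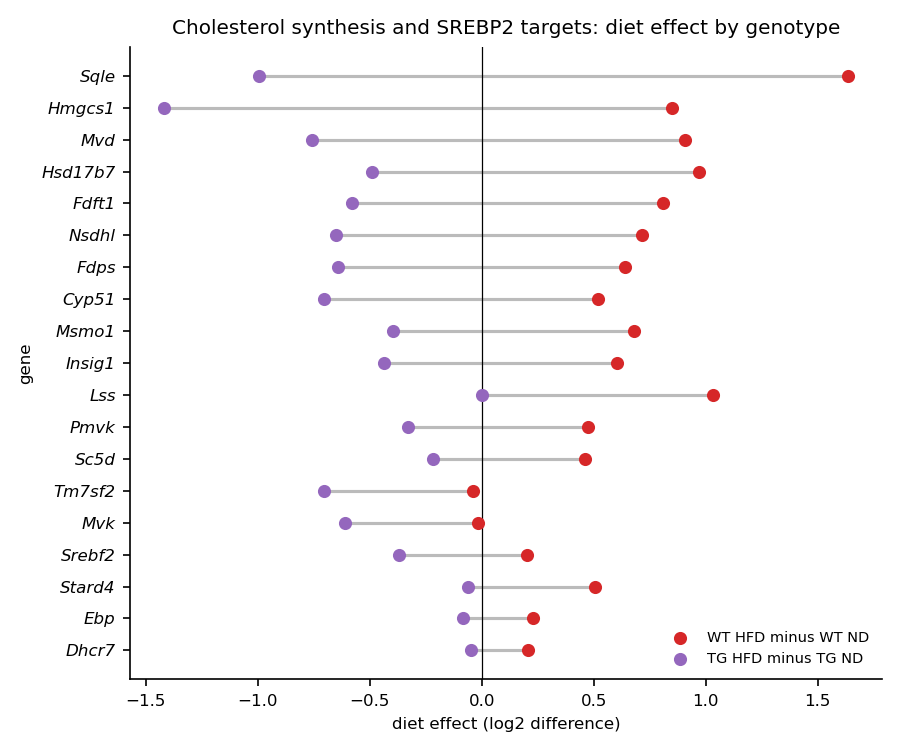
Diet effect (HFD minus ND, log2 difference) of the 19 measured genes of cholesterol synthesis and SREBP2 targets in WT and in TG, joined by a grey line, in the order of their interaction. The WT point lies to the right of the TG point for all 19 genes, although none of the interactions passed the threshold.

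For fatty acid and triglyceride synthesis, 2 of 26 measured genes passed, Mogat1 and Elovl3, both lower, against 0.189% of all genes. The median was -0.45, with 21 below 0, and it was -0.75 without TG HFD replicate 3. Of those 2, Mogat1 was high in WT on HFD and Elovl3 low in TG on HFD. Fasn, fatty acid synthase, had an interaction of -1.34 (SE 0.62, adjusted p 0.686) and Scd1, the main fatty acid desaturase of liver, -0.43 (SE 0.42, adjusted p 0.892). Of 14 genes of fatty acid uptake and binding, Vldlr alone passed, with a median of -0.09. The scavenger receptor Cd36, which takes up fatty acids, had -1.01 (SE 0.38, adjusted p 0.576).

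Lipid droplet genes gave 0 of 19, with a median of -0.15. Over all genes 0.189% passed, so 0 calls in lists of such sizes say little. Cidea, a droplet protein that promotes fat storage, read 0.59, 1.63 and 0.75 in WT on ND, 4.41, 2.13 and 4.15 in WT on HFD, 0.76 to 0.94 in TG on ND and 0.65 to 0.98 in TG on HFD. It rose in WT by 2.57 (adjusted p 0.012), and all WT HFD arrays lay above the rest, with replicate 2 well below the others. Its interaction, -2.62 (SE 0.61), did not pass (adjusted p 0.176). Cidec, its relative, rose in WT by 2.90 (adjusted p 0.00751) and had -2.19 (adjusted p 0.38). Pparg, the nuclear receptor that drives droplet genes in fatty liver, had -1.71 (adjusted p 0.357). Of 34 oxidation genes and PPARA targets, 0 passed, with a median of -0.11, among them Fgf21, a liver hormone of fasting, at -1.64 (adjusted p 0.553). The bile acid list gave 0 of 21, although Cyp7a1, the rate-limiting enzyme of bile acid synthesis, rose in WT by 1.86 (adjusted p 0.00809) and had an interaction of -1.54 (adjusted p 0.305).

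Sex-biased liver genes held 3 of the calls, where 0.189% of all genes passed. Of 26 male-biased genes, Selenbp2 was higher and Elovl3 lower, with a median of 0.22, and of 27 female-biased genes Slc22a27 was lower, with a median of -0.38. The mean log2 level of the female-biased list was 2.30 to 2.38 in WT on ND, 2.93 to 3.28 in WT on HFD, 1.88 to 2.22 in TG on ND and 2.09 to 2.31 in TG on HFD. WT on HFD stood above all TG arrays on that measure. The diet effect in WT passed for 5 of these 27 genes, all up, and for 5 of the 26 male-biased genes, all down, while in TG it passed for 0 and 1. Over all genes 0.911% passed in WT and 0.455% in TG. The difference between the genotypes was not tested for either list as a whole.

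Each of 4 other lists held 1 call, already named above: the Cyp2c family 1 of 14 (Cyp2c29), protease inhibitors 1 of 16 (Mug2), cytosolic ribosomal proteins 1 of 28 (Rpl3) and periportal markers 1 of 8 (Cdh1). Over all genes 0.189% passed, so a list of such a size would seldom hold a call, and 0 calls say little. Genes of BMP and TGF-beta signalling gave 0 of 46, with a median of -0.06. Id1, a target of BMP signalling, had 0.10 (95% interval -0.47 to 0.67), Smad7, an inhibitor of the pathway, -0.34 (-0.93 to 0.26), and Hamp, the iron hormone hepcidin that BMP induces, -0.15 (-0.99 to 0.69). Core clock genes gave 0 of 17, with a median of 0.22. Marco, a scavenger receptor of macrophages, fell with diet by 1.81 in WT (adjusted p 0.00321) and by 1.27 in TG (adjusted p 0.0347), and had an interaction of 0.54 (-0.22 to 1.30). Col1a1, the main collagen of scars, had -0.85 (-1.94 to 0.25), Tnf, an inflammatory cytokine, -0.09 (-0.72 to 0.54), Mt2, a metallothionein, -0.57 (-1.62 to 0.47), Bst2, an interferon-induced membrane protein, -0.55 (-1.42 to 0.32), and Cyp17a1, an enzyme of steroid synthesis, -2.01 (-4.33 to 0.30). None of these 5 passed.

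Just inside the threshold lay Treh (adjusted p 0.0494) and Grk5 (0.0464), and just outside Lncbate1 (interaction 2.03) and Baiap2 (1.37), both at 0.0512 and named for that place. In the fit of all 19 arrays 49 genes passed (0.221%), of which 28 were among the 42. Of the 21 gained there, 2 were picked after their values were seen. Cyp2c38, a further member of the Cyp2c family, had an interaction of -4.43, with a diet effect of 2.27 in WT and -2.15 in TG. Clec2h, a C-type lectin, had 4.46, with a diet effect of -3.69 in WT. Their adjusted p was 0.0434 and 0.044 with 19 arrays and 0.139 and 0.0752 with 13. Outside the gene table, among 17824 probe sets with several symbols or none here, 9 passed when all 41345 probe sets were fitted, 5 set by WT on HFD, 3 by WT on ND and 1 by no single group.

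Settings other than leaving out 1 array also ended calls among the named genes. With 19 arrays these were Igfbp2, Mogat1, Robo1, Tiam2, Col27a1, Ttc39c, Enpp6, Cdh1, Map3k15 and Treh. With the mean of probe sets they were Rpl3, Rps3a1, Cyp2c29, Cdh1, Grk5 and Treh. The clock score as a covariate ended the calls of Rps3a1, Cyp2c29, Cptp, Gas6, Impg2, Col27a1, Ide, Ttc39c, Selenbp2, Rfxank, Enpp6, Cdh1, Map3k15, Grk5 and Treh. Without WT HFD replicate 1 and TG HFD replicate 2 together, Mogat1, Robo1, Cyp2c29, Tmem260, Cptp, Ide, Mug2, Cep83os, Ttc39c, Selenbp2, Rfxank, Enpp6, Cdh1, Map3k15, Grk5 and Treh were lost. With eBayes trend and robust Selenbp2, Map3k15, Grk5 and Treh missed the threshold, and with another quantile normalization or array weights Grk5 did.

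**Figure D5:**
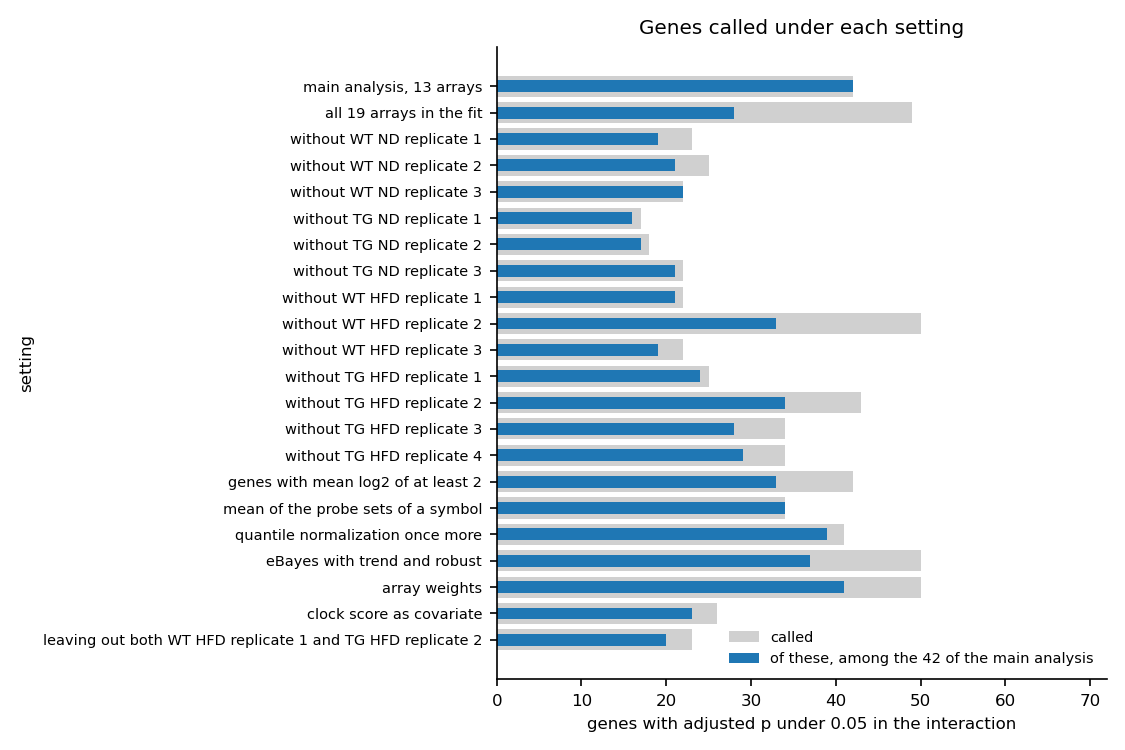
Number of genes passing the interaction (x axis) under each setting (y axis): grey bars count all genes passing, blue bars those among the 42 of the main analysis. Leaving out 1 array gave 17 to 50 genes, and the clock score as a covariate gave 26.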

How the data were processed

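Total RNA of whole liver (400 ng per sample) was hybridised to 19 Affymetrix arrays, 1 per sample. For every probe set the deposited table gives a log2 value, normalized between arrays by the authors. Per the submitters' processing notes the tools were limma, affy and RMA, without versions. That the base is log2 and that RMA was used was inferred from these names and the range of the values. With another base every difference would scale by 1 factor.

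The platform annotation pairs 23521 of 41345 probe sets with 1 symbol, 1814 with several and 16010 with none here, and 23328 matched a RefSeq table (GRCm38.p6). For the 1082 symbols with more than 1 probe set, the one with the highest mean over 19 arrays was used, which gave 22180 genes. Of these 56.4% had a mean log2 value under 2, 9 of the 42 genes of the interaction among them, and 1.81% of values were below 0.

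The 13 WT and TG arrays were fitted with limma 3.58.1 (lmFit and eBayes, R 4.3.3) as 4 group means, with 9 residual and 4.62 prior degrees of freedom. Tests were two-sided, with Benjamini-Hochberg adjustment over all genes and a threshold of 0.05. KO diet effects are from a fit of all 19 arrays. SE and 95% intervals are moderated, and SD is between arrays. Genes named are the 12 largest differences each way, the 8 of smallest p, called members of fixed lists and 20 fixed genes. By this rule pseudogenes, small RNAs and predicted genes are counted and not named. Those named here, and every other gene outside the rule, were chosen after their values were seen, apart from the liver genes Alb, Ttr and Apoa1. The members, lists and rules were chosen with earlier results of these data known, so no list is independent evidence. The fit was tested on simulated data with noise independent between genes and differences placed in TG on HFD alone. That setting differs from these data, so the test lends no weight to the results here. Alternatives were the 19 arrays, a filter on dim genes, the mean of probe sets, another quantile normalization, eBayes with trend and robust, array weights, a clock score as covariate, and leaving out each array. Arrays carry no read depth, and their number limits the precision.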

Additional observations from a re-analysis of the deposited data

Results flagged for a closer look

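The diet effect of 35 named genes differed between TG and WT by a test of the difference itself (limma interaction over 13 arrays, adjusted p under 0.05). The log2 difference, diet effect in TG minus that in WT, was below 0 for the following. The 8 lowest were Ctse (-6.51), Mme (-4.22), Slc22a27 (-3.94), Gdpd3 (-3.74), Vldlr (-2.47), Nt5e (-2.38), Mogat1 (-2.21) and Robo1 (-2.18). The next were Elovl3 (-2.06), Rpl3 (-1.88), Cep83os (-1.73), Abca3 (-1.70), Treh (-1.65), Gas6 (-1.57), Prxl2b (-1.55) and Grk5 (-1.47). Closest to 0 were Impg2 (-1.37), Dtd2 (-1.32), Cptp (-1.26), Cyp2c29 (-1.24), Rfxank (-1.12), Map3k15 (-1.02), Tmem260 (-1.02) and Ide (-0.89). Above 0 the highest were Selenbp2 (5.65), Asic5 (3.64), Tiam2 (2.23), Cdh1 (2.15), Rian (2.07), Rps3a1 (1.99) and Enpp6 (1.92). The others above 0 were Mug2 (1.63), Igfbp2 (1.62), Col27a1 (1.57) and Ttc39c (1.04).

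In the 4 arrays of TG on HFD, 1 array lay far from the other 3 in 5 of these genes. The gap divided by the range was 0.96 in Mogat1, 0.909 in Rfxank, 0.883 in Prxl2b, 0.861 in Elovl3 and 0.856 in Col27a1. Chance alone flags about 1 in 20 groups. The array apart was TG HFD replicate 4 in Mogat1 (1.05), Prxl2b (3.94) and Col27a1 (3.06), replicate 3 in Rfxank (5.53) and replicate 2 in Elovl3 (6.34). Without that array each of the 5 still passed the interaction.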

How the results depend on the processing

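Over 21 other settings no interaction of the 35 named genes reversed. Of the 35, 13 passed in all 13 fits that leave out 1 array and 12 in all other settings that tested them, and 11 in both: Gdpd3, Ctse, Asic5, Prxl2b, Dtd2, Mme, Abca3, Slc22a27, Nt5e, Rian and Elovl3. Of these, Gdpd3, Slc22a27 and Rian were removed by the filter on dim genes and not tested under it. Leaving out 1 array, the interaction called 17 to 50 genes (4 to 20 higher, 12 to 35 lower), with at most 25 without any 1 array of WT ND or TG ND, WT HFD replicate 1 or 3, or TG HFD replicate 1. Diet effects then called 124 to 237 genes in WT and 35 to 115 in TG, and TG against WT 123 to 270 on ND and 265 to 652 on HFD. The group apart was WT ND in 8 to 14 genes, WT HFD in 5 to 26, TG ND in 0 to 2, TG HFD in 1 to 5 and none in 0 to 5.

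With 19 arrays the diet effect in TG called 201 genes, TG HFD stood apart in 5 genes and no group in 8. With genes of mean log2 of at least 2 the TG diet effect called 184. With eBayes trend and robust it called 155, with TG ND apart in 1, TG HFD in 4 and none in 5. With the mean of probe sets TG ND and TG HFD stood apart in 1 each, and with another quantile normalization or array weights TG ND in 1. With the clock score as a covariate, which moved with diet, the interaction called 26 (10 higher, 16 lower), the diet effect 4 in WT and 0 in TG, and TG against WT on ND 142, with WT HFD apart in 8, TG ND in 0 and TG HFD in 1. Without the pair of arrays that correlated least with other groups, WT HFD replicate 1 and TG HFD replicate 2, a choice made after seeing the data, the interaction called 23 (8 higher, 15 lower) and TG against WT 287 on ND and 232 on HFD, with WT ND apart in 10, WT HFD in 11, TG ND in 0, TG HFD in 1 and none in 1. The cause of these changes was not tested.

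Signs reversed in 3 genes that never passed. Leaving out 1 array, Hamp ran from -0.41 to 0.10 (0.044 without WT ND replicate 3, 0.10 without TG HFD replicate 2), and Tnf from -0.23 to 0.17 (0.17 without TG ND replicate 1, 0.016 without WT HFD replicate 3, 0.031 without TG HFD replicate 1). Id1 ran from -0.060 to 0.34 (-0.060 without WT HFD replicate 1, -0.014 without TG HFD replicate 3) and was -0.012 without the pair. No paired analysis was possible because the titles give no replicate numbers shared between groups. Groups of 3 or 4 animals limit all of these results.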
